A study of Mus musculus with 2 samples.

Results

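The endothelial cells described here came from digests of the mouse thoracic aorta and were set apart by 6 transcripts, *Isl1*, *Nkx2-3*, *Emcn*, *Bmp6*, *Clec1a* and *Cytl1*. Cells were first gated as endothelial by at least 3 UMIs (unique molecular identifiers, so 1 UMI is 1 RNA molecule that was captured) of *Pecam1*, *Cdh5* and *Egfl7* together and no UMI of *Ptprc*, *Pdgfra*, *Prox1* or *Mmrn1*. A gated cell was a member if at least 2 of the 6 transcripts were detected and if they outnumbered the detected transcripts of a second set of 6, *Adra2a*, *Sema3g*, *Igf2*, *Cyp4b1*, *Stmn2* and *Gkn3*. This gave 822 members, 437 from aorta 1 and 385 from aorta 2, among 1477 gated cells and 11442 cells in all. The reverse rule gave 294 comparison cells (168 and 126), and 361 gated cells met neither rule. Because the cells were chosen by measured UMIs of these 19 genes, the values of these genes are given as a description and were not tested.

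The aortas came from 2 male wild-type mice of 1 group, each aorta forming 1 droplet library, and no other genotype or treatment was compared. The labels give the strain as C57BL/6J and the genotype as GFPiSMC, which stands for mice carrying *Myh11-CreERT2* and the *mT/mG* reporter, and all had been given tamoxifen (1 mg/d, 5 days) when 3 weeks old and were analysed at 12 weeks. The Cre recombinase is driven by the *Myh11* promoter of smooth muscle cells (SMCs), so endothelial cells are outside the targeted lineage. Viable single cells were sorted from enzymatic digests without selection for GFP. Members and comparison cells come from the same animals, and the groups compared are sums of cells from each aorta.

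The endothelium is a single sheet of cells between blood and vessel wall that controls leukocyte entry, clotting, permeability and vascular tone. Its cells differ with vessel type and with local flow, and arterial, venous, capillary and valve endothelium are told apart by signals of the Notch, BMP, Wnt and VEGF families and by homeodomain and other transcription factors. *Isl1*, a LIM-homeodomain factor, marks cardiac progenitors that also contribute to the great vessels, and *Nkx2-3* is a homeodomain factor known for endothelium of spleen and gut. *Emcn* encodes endomucin, a sialomucin typical of venous and capillary endothelium, *Bmp6* a ligand of the BMP family, *Clec1a* a C-type lectin-like receptor and *Cytl1* a small secreted protein.

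Of the 6 genes chosen for, 5 had a reference sequence upstream of the transcription start, and those of *Emcn*, *Nkx2-3* and *Isl1* are shown because their transcripts were the rarest in comparison cells relative to members. Each sequence is the 250 bases before the RefSeq start on GRCm38.p6, read 5′ to 3′ on the gene's strand, and capitals mark matches on either strand to CNGGAA, the core bound by ETS factors. The *Emcn* sequence lies at chr3:137340828-137341077 on the plus strand and holds 2 matches. *Nkx2-3* (chr19:43612075-43612324, plus strand) and *Isl1* (chr13:116309689-116309938, minus strand) hold 0.
Emcn: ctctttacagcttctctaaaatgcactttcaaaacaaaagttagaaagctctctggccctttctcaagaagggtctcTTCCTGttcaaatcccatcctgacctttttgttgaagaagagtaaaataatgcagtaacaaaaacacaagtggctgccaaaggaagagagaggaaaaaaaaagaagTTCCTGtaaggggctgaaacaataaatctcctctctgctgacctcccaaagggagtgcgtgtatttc
Nkx2-3: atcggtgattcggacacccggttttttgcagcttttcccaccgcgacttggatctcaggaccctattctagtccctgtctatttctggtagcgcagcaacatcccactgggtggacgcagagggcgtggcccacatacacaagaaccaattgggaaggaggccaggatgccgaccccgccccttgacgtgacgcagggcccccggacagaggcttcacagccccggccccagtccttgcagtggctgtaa
Isl1: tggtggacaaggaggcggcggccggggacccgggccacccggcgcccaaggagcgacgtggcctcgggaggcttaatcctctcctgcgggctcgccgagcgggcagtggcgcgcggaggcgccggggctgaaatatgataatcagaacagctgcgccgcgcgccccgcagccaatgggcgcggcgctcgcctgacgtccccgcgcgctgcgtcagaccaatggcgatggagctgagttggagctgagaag
At least 1 match was present in 54.2% of 32851 promoters of the same length, so the presence of a match does not set *Emcn* apart. The core TNAAGTG, bound by NKX2 factors, was searched on both strands in the same way and is held by 10.1% of promoters. Homeodomain factors bind TAATTA, which is held by 4.8% of promoters. GATA factors bind AGATAA, which is held by 10% of promoters. None of these cores holds another, and no match to them lies in the 5 sequences. GC content was 40.8% for *Emcn* and 71.2% for *Isl1*.

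The files held 8947 and 6263 cells for aorta 1 and aorta 2, of which 6744 and 4698 passed the filter on genes, UMIs and mitochondrial share, and the labels count 6278 and 4300 cells after the study's own filtering. Members had a median of 4087 and 3670 UMIs and 1883 and 1738 detected genes per cell, comparison cells 4026 and 2914 UMIs, and the summed members held 2015561 and 1634415 UMIs. The libraries shared 18 barcodes, and 1 member of aorta 2 had a barcode that was also in aorta 1. Members were 55.3% of gated cells in aorta 1, with an exact 95% binomial interval of 51.8 to 58.8 for counting error only, and 56.0% in aorta 2, with an interval of 52.2 to 59.8. The mean share was 55.7%, and it was 36.6% without *Cytl1* in the rule, 44.3% with at least 3 detected genes and 46.3% with the rule applied at 1000 UMIs per cell, so that a majority depends on the rule. Only cells that survived digestion and sorting could be counted. The summed level of 10 endothelial markers that the rule did not use was 3800 and 4276 CPM (the UMIs of a gene or list for every 1000000 UMIs of the cell group) in members and 13.5 and 22.6 CPM in lymphocytes of the same aortas. Endothelial genes outside the gate were thus also high in members.

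*Isl1* was at 125 CPM in the members of both aortas, 3.96 and 20.5 CPM in comparison cells, and 0.674 and 0 CPM in lymphocytes. *Nkx2-3* was at 64.5 and 75.9 CPM in members and 1.32 and 2.28 CPM in comparison cells, where it rested on 1 UMI in each aorta. *Emcn* was at 556 and 532 CPM in members against 6.60 and 34.2 CPM in comparison cells. Of the 6 genes chosen for, these 3 separate the groups most, and since the rule used them the gap describes the choice of cells. *Emcn* was as high in lymphatic endothelial cells, which the gate leaves out (554 and 617 CPM), whereas *Isl1* (0 and 4.82 CPM) and *Nkx2-3* (0 and 0 CPM in 38 and 64 cells) were near or at 0 there.

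*Bmp6* was at 580 and 589 CPM in members and still at 202 and 242 CPM in comparison cells, and *Clec1a* was at 237 and 227 CPM against 106 and 84.4 CPM. *Cytl1* was at 5947 and 6662 CPM in members and at 6491 and 7672 CPM in comparison cells, where the groups overlap, and it was detected in 97.7% and 97.9% of members and 97.6% of comparison cells in both aortas. It thus counts toward nearly every cell and does not distinguish the groups, so that for most cells the rule asks for 1 further transcript. In SMCs *Cytl1* was at 9.25 and 10.2 CPM, which leaves it a transcript of this endothelium at large. In all, 155 of 822 members (18.9%) had no UMI of *Isl1*, *Nkx2-3* or *Emcn*, and 64 (7.79%) were members by *Cytl1* and *Bmp6* alone.

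Shares of positive cells depend on depth, so each cell was thinned to 1000 UMIs, which left out no cell. *Emcn* was then detected in 30% and 29.6% of members (52.9% and 47.5% without thinning) and in 0.595% and 1.59% of comparison cells. *Isl1* was detected in 12.6% and 11.7% of members (38.4% and 39.0% without thinning), and *Nkx2-3* in 5.95% and 7.01% (20.6% and 24.4%). In lymphocytes, which should lack these transcripts, the thinned shares were 0% in both aortas for *Isl1* and *Nkx2-3* and 0.303% and 0.488% for *Emcn*. Their median depth before thinning was 3784 and 3480 UMIs. The 0 of 330 and 0 of 205 lymphocytes allow shares of up to 1.11% and 1.78% by the exact 95% interval. Since the rule used these genes, the shares in members describe the choice of cells.

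**Figure D1:**
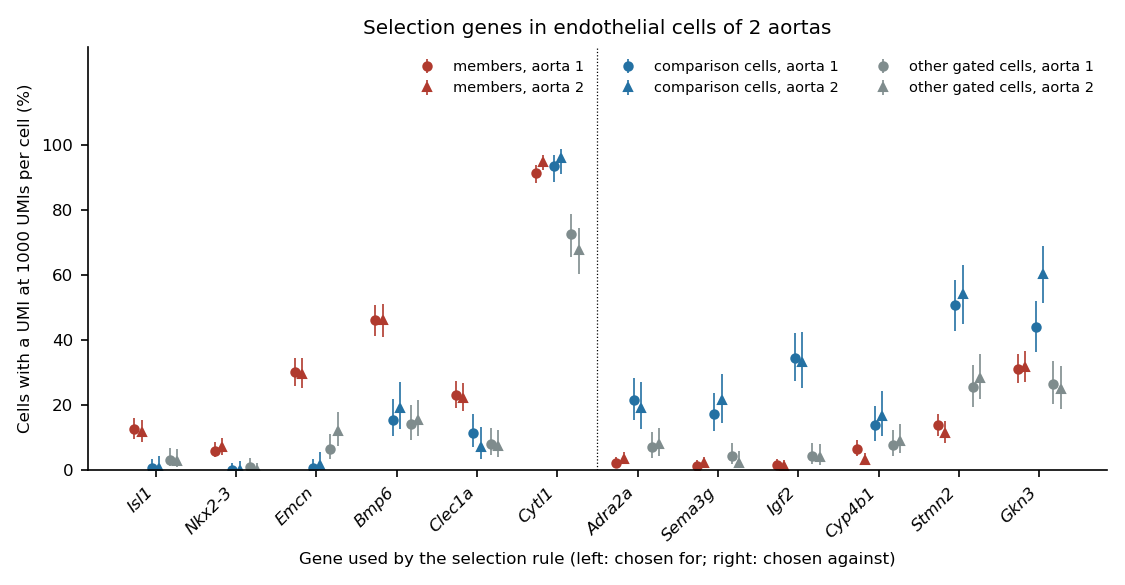
Share of cells with at least 1 UMI after thinning each cell to 1000 UMIs (y axis, %) for the 6 genes chosen for and the 6 chosen against (x axis), in members, comparison cells and other gated cells of aorta 1 (circles) and aorta 2 (triangles); bars are exact 95% binomial intervals. *Cytl1* lies above 90% in members and comparison cells alike, whereas *Emcn* is near 30% in members and below 2% in comparison cells.

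Of the genes chosen against, *Igf2*, a growth factor, was at 25.3 and 14.1 CPM in members and 532 and 545 CPM in comparison cells, and *Sema3g*, an arterial semaphorin, at 15.4 and 12.8 CPM against 210 and 221 CPM. *Adra2a* (26.3 and 36.7 CPM against 186 and 244 CPM) and *Stmn2* (163 and 143 CPM against 815 and 860 CPM) followed the same order, and *Cyp4b1* did so with a smaller gap (63.0 and 46.5 CPM against 136 and 171 CPM). *Gkn3* stayed high in members, at 576 and 543 CPM against 749 and 992 CPM, and at 1000 UMIs it was detected in 31.1% and 31.7% of members. Members therefore keep 1 of the transcripts that were used against them.

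Each gene was also measured in cells chosen without it, by the other 5 genes and the second set of 6, so that its own UMIs played no part in the choice. *Emcn* was then 9.82 and 4.62 times higher in the selected cells than in the comparison cells of aorta 1 and aorta 2, *Nkx2-3* 3.18 and 9.89 times, and *Isl1* 3.50 and 2.17 times. *Bmp6* was 1.91 and 1.55 times higher and *Clec1a* 1.43 and 1.40 times. *Cytl1* was lower, at 0.853 and 0.815 times the comparison level. The order of the first 3 genes differed between the aortas, and the higher level in the selected cells was seen in both aortas for 5 of the 6 genes.

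Co-detection within single cells was counted as well. Over all 1477 gated cells at 1000 UMIs, *Emcn* was found in 15% of the 113 cells with *Isl1* and 19.4% of the cells without it, and in 12.7% of the 55 cells with *Nkx2-3* and 19.3% of the others. *Isl1* was found in 18.2% of cells with *Nkx2-3* and 7.24% of the others. *Bmp6* was more frequent in cells with *Emcn* (45.9% against 29.4%), with *Isl1* (43.4% against 31.7%) and with *Nkx2-3* (43.6% against 32.1%). These shares pool both aortas and all cells of the gate, rest on few positive cells for *Nkx2-3* and were not tested. Without thinning, in the 175 members of cluster 3, 1 of the clusters of gated cells, *Isl1* was found in 43.4% and *Emcn* in 88%, and 67 of these cells carried both.

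At the border of the rule, 235 members had 1 more detected gene of the first set than of the second, and 162 gated cells outside had as many of each. *Emcn* was at 274 CPM just inside and 128 CPM just outside, *Nkx2-3* at 44.2 and 22.8 CPM, and *Stmn2* at 325 and 619 CPM. *Isl1* was at 68.5 CPM inside and 62.4 CPM outside, and *Bmp6* at 426 and 409 CPM, so these genes pass over the border with little change.

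Clustering of the gated cells on 2000 variable genes, none of them among the 19 of the rule, gave 8 clusters, numbered 0 to 7 by size, and showed how the members vary among themselves. Members made up 93.1% of cluster 3 (175 of 188 cells) and 80.6% of cluster 0 (325 of 403), 50.5% of cluster 2, 39.7% of cluster 1 and 5.38% of cluster 4. Cluster 4, led by *Slc6a6*, *Gap43* and *Jag2*, instead held 36.4% of comparison cells. Clusters 0 and 3 together held most members, and the remaining members were spread over clusters that comparison cells share. At a higher resolution (1 in place of 0.5, chosen after the data were seen) the cells fell into 12 clusters, of which the one with the most members held 284 members and 20 comparison cells and the next 183 members and 1 comparison cell.

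The genes of the rule were not used for clustering, and their levels over all gated cells of a cluster, members or not, followed the clusters. *Nkx2-3* was at 152 and 127 CPM in cluster 0 of aorta 1 and aorta 2, 38.9 and 41.9 CPM in cluster 3, 22.8 and 16.9 CPM in cluster 2 and 5.32 and 1.99 CPM in cluster 1. *Emcn* had another order, with 1149 and 1274 CPM in cluster 3, 619 and 600 CPM in cluster 6, 303 and 296 CPM in cluster 1 and 139 and 265 CPM in cluster 0. *Isl1* was at 164 and 170 CPM in cluster 0, 137 and 132 CPM in cluster 2, 117 and 126 CPM in cluster 3 and 19.5 and 7.95 CPM in cluster 1. The cells with the most *Nkx2-3* are thus not those with the most *Emcn*, in either aorta. In cluster 4, *Isl1* (5.39 and 0 CPM) and *Emcn* (18.9 and 0 CPM) were near 0, while *Sema3g* (418 and 496 CPM) and *Igf2* (892 and 1370 CPM) had their highest levels of the 8 clusters.

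**Figure D2:**
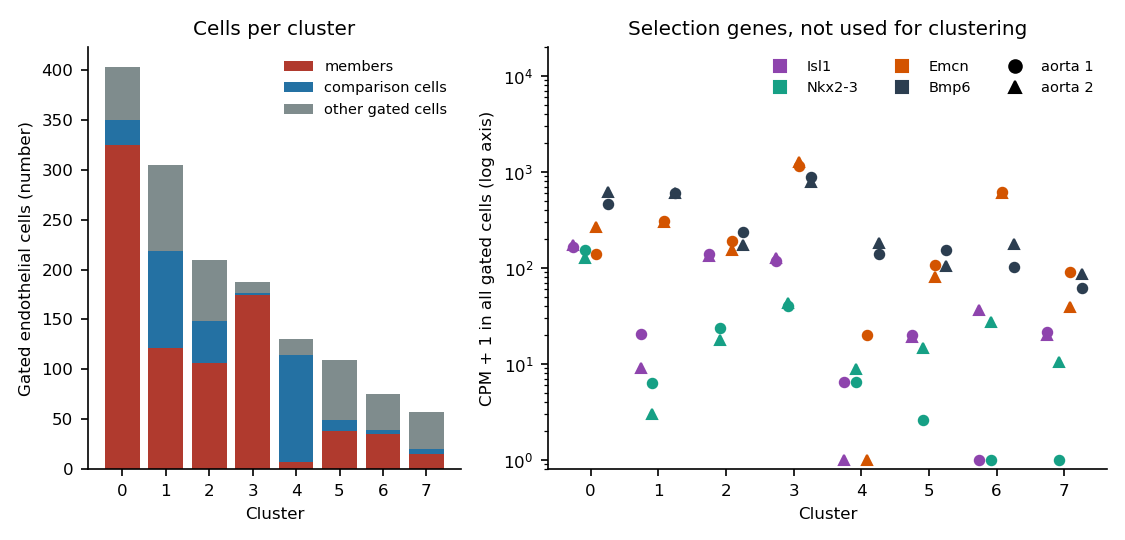
Left, number of gated cells in each cluster (x axis) by group. Right, CPM + 1 on a log axis of *Isl1*, *Nkx2-3*, *Emcn* and *Bmp6* over all gated cells of each cluster in aorta 1 (circles) and aorta 2 (triangles). *Nkx2-3* has its highest level in cluster 0 and *Emcn* in cluster 3.

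The members of cluster 3 (107 and 68 cells) carried a set of secreted products. *Nrg1*, the neuregulin ligand of ERBB receptors that signals in endocardium, was at 105 and 111 CPM in these members and at most 6.04 CPM in the members of clusters 0, 1, 2, 5 and 6 of either aorta, with 21.9 CPM in the 15 members of cluster 7. *Thbs1*, encoding thrombospondin-1, was at 1585 and 1693 CPM in cluster 3, 977 and 1092 CPM in cluster 1, 476 and 424 CPM in cluster 0 and 96.3 and 131 CPM in cluster 2. *Apoe* was at 15597 and 17573 CPM in cluster 3, 9966 and 9881 CPM in cluster 1 and 4349 and 4948 CPM in cluster 0. *Twist1*, a mesenchymal transcription factor, was by contrast as high in cluster 0 (337 and 291 CPM) as in cluster 3 (268 and 239 CPM) and at 72.7 and 73.1 CPM in cluster 1. These values describe the clusters that the same genes helped to form.

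Members of cluster 1 (66 and 55 cells) had 888 and 1118 CPM of *Edn1*, the endothelin-1 precursor, close to the 770 and 915 CPM of cluster 3, and 634 and 527 CPM of *Emcn* with only 40.4 and 20.9 CPM of *Isl1*. Cluster 2 was led by globin genes, *Ptn* and *Mal*, but its members (70 and 36 cells) had only 39.9 and 58.2 CPM of *Hbb-bs*. They had 1870 and 1806 CPM of the water channel *Aqp1* and 173 and 138 CPM of *Isl1*. A small capillary-like set, cluster 6, was led by *Gpihbp1*, *Cd36* and *Fabp4*, which serve fatty acid uptake, and its 35 members had 1038 and 983 CPM of *Gpihbp1*, with at most 1.83 CPM in the members of clusters 0 to 3 and 5. *Emcn* was found in 91.4% of these members and *Isl1* in 2.86%. Clusters 5 and 7 were led by smooth muscle genes such as *Acta2* and *Myh11* and by *Rgs5*, *Lum* and *Dpt*, had the highest median UMIs (9849 and 8003 per cell) and held 38 and 15 members. The endothelial gate thus let in some cells that also carried transcripts of other wall cells.

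To find which other genes differ, UMIs were summed per aorta for members, comparison cells and the other gated cells and compared with edgeR's quasi-likelihood test with Benjamini-Hochberg adjustment, from which all adjusted p-values below come. Of 9032 genes tested, 269 (2.98%) differed by more than 1 on the log2 scale at an adjusted p under 0.05, with 131 higher in members (1.45%) and 138 lower (1.53%). Without the limit on fold change 495 genes passed (5.48%), 224 higher (2.48%) and 271 lower (3.00%). The p-values measure the spread between sums of 2 animals, and genes that vary with the 12 transcripts of the rule from cell to cell could also enter through the way the cells were chosen, which was not tested. The median log2 fold change over all genes tested was 0.

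Among the genes with the largest increases, *G0s2*, an inhibitor of triglyceride lipase (chr1:193272161-193273217 on GRCm38), had 84 and 176 UMIs in members (41.7 and 108 CPM) and 1 and 0 UMIs in comparison cells. The ratio of the rates was 85.2 with a counting interval of 15.2 to 3377. The log2 fold change was 4.74 within aorta 1 and 8.08 within aorta 2. With 0 UMIs in the comparison cells of aorta 2, the value of 8.08 was set by a small count added before the fold was taken. *Ahsg*, encoding the secreted glycoprotein fetuin-A known from liver (chr16:22891277-22899449), was at 140 and 146 CPM in members and 2.64 and 2.28 CPM in comparison cells, a ratio of 56.9 (19.4 to 277). In fibroblasts *Ahsg* was at 17.2 and 13.9 CPM, whereas *G0s2* (54.3 and 68.5 CPM) was there about as high as in members. *Heph*, the ferroxidase hephaestin, was at 35.2 and 32.4 CPM in members, 28.2 and 27.3 CPM in fibroblasts, and rested on 3 UMIs in comparison cells (ratio 13.5, 4.53 to 66.6), as did *Pxylp1*, a phosphatase of proteoglycan linker synthesis (33.2 and 31.8 CPM, ratio 13.0, 4.34 to 63.9). These 4 genes are close to absent from comparison cells in both aortas, but each was found in a minority of members. *G0s2* was found in 10.3% and 15.8% of members, *Ahsg* in 25.4% and 23.1%, *Heph* in 11.9% and 10.4% and *Pxylp1* in 13.5% and 11.9%. *Ahsg* was at 347 and 377 CPM in the members of cluster 3, 81.6 and 139 CPM in cluster 0 and 8.07 and 0 CPM in cluster 1. *Ahsg*, *Emb*, *Frzb* and *Rps6ka2* are also leading genes of cluster 3.

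*Ctla2a*, a cysteine protease inhibitor, was at 701 and 691 CPM in members and 106 and 116 CPM in comparison cells, higher by 2.66 ± 0.15 (SE) on the log2 scale (adjusted p = 1.82e-08). It has a near-identical neighbor, *Ctla2b*, and reads of the pair may have been divided. *Frzb*, a secreted Wnt antagonist, was at 135 and 163 CPM against 15.8 and 13.7 CPM (3.30 ± 0.26, adjusted p = 3.69e-07). *Emb*, a partner of monocarboxylate transporters, was at 86.8 and 58.1 CPM against 14.5 and 9.12 CPM (2.54 ± 0.34, adjusted p = 1.25e-04), and *Rps6ka2*, a ribosomal S6 kinase, at 75.4 and 57.5 CPM against 14.5 and 4.56 CPM (2.62 ± 0.37, adjusted p = 2.18e-04). *Aldh3a1*, an aldehyde dehydrogenase, was at 36.2 and 45.3 CPM against 6.60 and 4.56 CPM. These genes were chosen by the test and the same direction in both aortas, so a gap between the groups follows largely from the choice.

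The last genes of this set were sparse. *C1qtnf7* was at 30.3 and 39.8 CPM in members and 7.92 and 2.28 CPM in comparison cells, *Camk4*, a calcium-dependent kinase, at 30.8 and 30.6 CPM against 2.64 and 9.12 CPM, and *Dlgap1*, a scaffold protein, at 27.8 and 33.7 CPM against 3.96 and 6.84 CPM. With a minimum of 5000 UMIs per cell their adjusted p-values rose to 0.165, 0.125 and 0.0669, at log2 fold changes of 2.12, 2.17 and 2.51 against 2.55, 2.58 and 2.58. With DESeq2 the adjusted p of *Camk4* was 0.0717. The log2 fold changes within aorta 1 and within aorta 2 were 1.95 and 3.92 for *C1qtnf7* and 3.45 and 1.71 for *Camk4*, so their size rests on which animal is used. For *Pxylp1* they were 3.03 and 6.34, but its comparison cells in aorta 2 had 0 UMIs. The value of 6.34 was therefore set by a small count added before the fold was taken. *C1qtnf7* was higher in fibroblasts (145 and 146 CPM) than in members, and *Dlgap1* in SMCs (56.8 and 63.0 CPM). *Camk4* was higher in lymphocytes (47.8 and 49.7 CPM), *Emb* in SMCs (113 and 127 CPM) and lymphocytes (175 and 195 CPM), and *Ctla2a* in lymphatic cells (1253 and 1606 CPM), so these genes were not particular to members among the cells of the wall.

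Among the genes with the largest decreases, *Jag2*, a Notch ligand of arterial endothelium (chr12:112907819-112929776), was at 3.47 and 3.67 CPM in members and 75.3 and 61.6 CPM in comparison cells (log2 fold change -4.25 ± 0.42, adjusted p = 4.89e-06). *Gap43*, a growth cone protein, was at 1.98 and 1.22 CPM against 46.2 and 54.7 CPM (-4.83 ± 0.52, adjusted p = 1.60e-05), and the comparison level rested on 4.17% and 3.17% of the cells. *Eps8l2*, an actin regulator, was at 1.98 and 0.612 CPM against 55.5 and 25.1 CPM. *Pthlh*, the precursor of parathyroid hormone-related protein, a vasodilator, was at 38.2 and 22 CPM against 218 and 169 CPM (-2.68 ± 0.21, adjusted p = 4.15e-07). Like the genes that rose, these were chosen by the test, so the gap between the groups follows largely from the choice.

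*Slc6a6*, the taurine transporter, fell from 203 and 137 CPM in comparison cells to 31.3 and 13.5 CPM in members (-2.92 ± 0.26, adjusted p = 2.57e-06), where 11.3% and 7.14% of comparison cells carried it. *Nr4a2*, an orphan nuclear receptor, was at 10.9 and 2.45 CPM in members against 81.9 and 45.6 CPM, *Hbegf*, an EGF-family ligand, at 14.4 and 7.95 CPM against 64.7 and 59.3 CPM, and *Nebl*, which binds actin, at 9.43 and 6.12 CPM against 68.7 and 36.5 CPM. *Nxpe4* was at 3.97 and 5.51 CPM against 29.0 and 31.9 CPM. *Cyp26b1*, which degrades retinoic acid, was at 14.9 and 1.22 CPM against 96.4 and 38.8 CPM, and its adjusted p of 6.17e-04 became 0.291 with DESeq2 at a like log2 fold change (-3.06 and -3.07). *Slc6a6*, *Gap43*, *Jag2*, *Nr4a2*, *Pthlh*, *Nebl* and *Cyp26b1* are also leading genes of cluster 4.

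**Figure D3:**
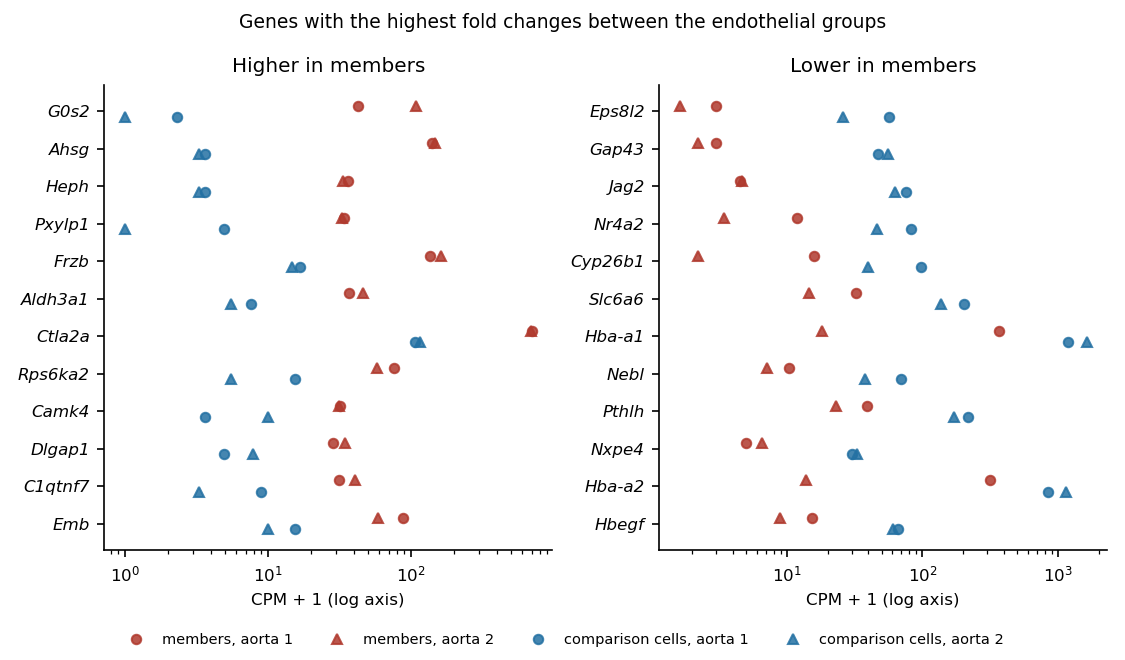
CPM + 1 on a log axis (x axis) of the 12 genes with the highest log2 fold change in each direction, in members (red) and comparison cells (blue) of aorta 1 (circles) and aorta 2 (triangles). The 24 genes were chosen by the test and the same direction in both aortas. A gap between members and comparison cells therefore follows largely from that choice. *Hba-a1* and *Hba-a2* show the widest gap between the aortas within members.

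The 2 remaining genes of the set, *Hba-a1* and *Hba-a2*, encode alpha globin in red cells, are near-identical copies, and moved with 1 library. *Hba-a1* was at 368 and 17.1 CPM in members and 1191 and 1633 CPM in comparison cells, and the log2 fold change was -1.64 within aorta 1 and -6.53 within aorta 2 (-1.37 and -6.42 for *Hba-a2*). Of 5 erythroid markers 3 passed the test and all of these were lower in members (median -2.60; 1 with DESeq2). Their summed level was 2152 and 97.9 CPM in members, 5684 and 8080 CPM in comparison cells and 2512 and 406 CPM in the other gated cells, with none of the 5 at 0 in members or comparison cells. A UMI of the list was found in 21.5% and 32.5% of members and 17.9% and 34.9% of comparison cells, and in 22.1% and 34.6% of lymphocytes, so that the share followed the aorta more than the cell group. In the members of cluster 1 *Hbb-bs* was at 10285 CPM in aorta 1 and 52.2 CPM in aorta 2. With DESeq2 the adjusted p of *Hba-a1* rose from 0.0245 to 0.855.

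The lists of genes that follow were chosen with earlier results of these data known, and each is described by its count at an adjusted p under 0.05 and by its median log2 fold change, beside 5.48% and 0 over all genes tested. Of 24 arterial endothelial genes tested, 10 passed, 4 higher and 6 lower, with a median of -0.11 (1 and 5 with DESeq2). *Nrp1*, the neuropilin co-receptor of VEGF and semaphorins, rose (887 and 865 CPM against 290 and 376 CPM, log2 fold change 1.41 ± 0.13, adjusted p = 3.15e-06), and *Efnb2*, the arterial ephrin, was higher by 0.63 ± 0.14, a call kept in 10 of 14 alternatives. *Sox17*, an arterial transcription factor, fell (111 and 144 CPM against 231 and 312 CPM, -1.07 ± 0.17, adjusted p = 6.44e-04). The arterial connexins *Gja4* (185 and 333 CPM against 180 and 356 CPM) and *Gja5* (249 and 236 CPM against 232 and 267 CPM) and the arterial kinase *Bmx* (439 and 471 CPM against 540 and 591 CPM) did not pass the test. Arterial genes thus went in both directions, and the connexin values overlapped between the groups.

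Of 18 Notch pathway genes 3 passed, all lower in members (median of the list -0.25), and all are ligands. Beside *Jag2*, *Jag1* was at 117 and 108 CPM against 246 and 189 CPM (log2 fold change -0.98 ± 0.15, adjusted p = 4.24e-04), and *Dll1* at 72.9 and 60 CPM against 118 and 125 CPM. The receptor *Notch1* (184 and 182 CPM against 222 and 189 CPM) and the target genes *Hey2* (143 and 139 CPM against 115 and 137 CPM) and *Hes1* (76.4 and 96.1 CPM against 87.1 and 121 CPM) did not pass. At an unadjusted p under 0.05, 2 Notch genes were higher and 6 lower. Each Notch gene that passed was thus a ligand.

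Venous and capillary lists leaned toward members. Of 12 venous genes 5 passed, each higher in members (median 0.53; 3 with DESeq2), among them *Slco2a1*, a prostaglandin transporter (354 and 359 CPM against 180 and 160 CPM, 1.06 ± 0.13, adjusted p = 4.12e-05). Of 14 capillary genes 5 passed, each higher (median 0.92). *Plvap*, the diaphragm protein of fenestrae and caveolae, was at 302 and 300 CPM against 143 and 178 CPM (0.93 ± 0.15, adjusted p = 8.90e-04). *Gpihbp1* was at 36.2 and 37.3 CPM against 10.6 and 9.12 CPM, and it came from cluster 6, which held 4.26% of members and 1.36% of comparison cells. The classical venous factor *Nr2f2* (25.3 and 10.4 CPM against 6.60 and 0 CPM) and the VEGF receptor *Kdr* (38.7 and 29.4 CPM against 23.8 and 9.12 CPM) did not pass.

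Of 9 genes of endocardium and valve endothelium tested, 4 were higher in members and 1 lower (median 0.76; 3 and 0 with DESeq2). *Nrg1* had 62 and 41 UMIs in members and none in comparison cells, which is at least 11.2-fold higher when 3 UMIs over the group are taken as the limit of a count of 0. *Smoc1*, a matricellular antagonist of BMP signaling, was at 488 and 471 CPM against 162 and 205 CPM (1.40 ± 0.18, adjusted p = 1.02e-04), and *Cgnl1*, a junction protein, at 453 and 449 CPM against 264 and 269 CPM. *Plagl1*, an imprinted zinc finger factor, was at 38.2 and 26.9 CPM against 10.6 and 9.12 CPM. *Hapln1*, a hyaluronan link protein of valve cushions, was lower, at 2.48 and 10.4 CPM against 31.7 and 22.8 CPM, with a log2 fold change of -3.47 within aorta 1 and -1.09 within aorta 2. *Npr3*, a marker of endocardium, was too sparse to test (16.4 and 7.95 CPM in members).

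Of 33 genes tested in the BMP and TGF-β list, 7 were higher and 5 lower (median 0.21, 3 and 2 with DESeq2). Among ligands, *Bmp4* was at 1209 and 1284 CPM in members against 578 and 762 CPM (0.90 ± 0.13, adjusted p = 2.18e-04), and *Gdf6* at 18.9 and 22.6 CPM, with 1 UMI in the comparison cells of each aorta (ratio 12.3, counting interval 3.28 to 103). The ligand *Tgfb1* went the other way, at 71.4 and 86.9 CPM against 139 and 107 CPM (-0.68 ± 0.17, adjusted p = 0.0239), with -0.90 within aorta 1 and -0.29 within aorta 2. Among antagonists, *Nog*, encoding noggin, had 2 and 1 UMIs in members and 24 and 11 UMIs in comparison cells (ratio 35.6, 11.2 to 181 in favor of comparison cells), all in 2.98% and 1.59% of these cells, whereas *Fstl1* was higher in members (1114 and 1194 CPM against 680 and 762 CPM). Among receptors, *Bmpr1a*, *Eng* and *Tgfbr3* were higher by 0.74, 0.44 and 1.15 on the log2 scale, calls that were lost with DESeq2 (adjusted p = 0.379, 0.302 and 0.332). *Acvrl1*, the endothelial BMP9 receptor ALK1, was lower (126 and 154 CPM against 219 and 221 CPM, -0.66 ± 0.14), a call that was also lost with DESeq2. The target gene *Id1* was lower in members, at 145 and 201 CPM against 456 and 410 CPM (-1.34 ± 0.16, adjusted p = 3.01e-05), while *Id3* (710 and 910 CPM against 704 and 680 CPM) and *Smad6* (90.3 and 121 CPM against 67.3 and 93.5 CPM) did not pass.

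In the Wnt list, 4 of 17 genes passed, each higher in members (median 0.36), and 3 of these encode secreted frizzled-related proteins, which bind Wnt ligands. *Sfrp1* was at 1832 and 1918 CPM against 520 and 894 CPM (1.42 ± 0.18, adjusted p = 5.27e-05) and *Sfrp2* at 115 and 106 CPM against 25.1 and 16 CPM (2.35 ± 0.26, adjusted p = 1.85e-05), beside *Frzb* above. The co-receptor *Lrp5* was at 84.3 and 82.6 CPM against 48.9 and 45.6 CPM. By the fitted fold change the 3 secreted antagonists were 2.67 (*Sfrp1*), 5.09 (*Sfrp2*) and 9.84 times (*Frzb*) higher.

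Of 20 genes of the VEGF, angiopoietin and FGF list, 3 were higher and 4 lower (median 0.06; 1 and 2 with DESeq2). *Angpt2*, the ligand that destabilizes vessels, was at 13.9 and 14.1 CPM in members with 1 UMI in the comparison cells of each aorta (ratio 8.35, counting interval 2.20 to 70.8), and its adjusted p of 0.0107 became 0.218 with DESeq2, 0.144 from 5000 UMIs per cell and 0.0524 without *Cytl1* in the rule. *Vegfc* (25.8 and 22.6 CPM against 97.7 and 47.9 CPM), *Flt1* (101 and 85 CPM against 221 and 132 CPM) and *Pdgfb* (50.1 and 48.9 CPM against 100 and 91.2 CPM) were lower. In the guidance list 4 of 28 genes were higher and 1 lower (median 0.17, 2 and 0 with DESeq2), among them *Ntn4*, encoding netrin-4 (212 and 189 CPM against 127 and 91.2 CPM). In the IGF list 1 of 9 genes passed: *Igfbp7* was at 1088 and 1133 CPM against 742 and 659 CPM (median of the list 0.32), and its log2 fold change of 0.66 ranged from 0.17 with a minimum of 5000 UMIs per cell (adjusted p of 0.809) to 2.31 without clusters 5, 6 and 7, with the call kept in 13 of 14 alternatives.

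Transcripts that respond to flow differed in both directions. In the list of genes induced by laminar flow, 5 of 15 were lower in members and 1 higher (median -0.07, 3 lower and 1 higher with DESeq2). *Klf2* was at 1146 and 1413 CPM against 1812 and 1863 CPM (-0.53 ± 0.11, adjusted p = 0.00616) and *Klf4* at 332 and 375 CPM against 566 and 525 CPM (-0.63 ± 0.12, adjusted p = 0.00221), both being transcription factors induced by shear stress. *Nos3*, encoding endothelial nitric oxide synthase, was at 272 and 227 CPM against 338 and 369 CPM, with a log2 fold change of -0.26 within aorta 1 and -0.69 within aorta 2 and a call kept in 8 of 14 alternatives. *Cyp1b1*, a cytochrome P450, was the exception, at 283 and 320 CPM against 108 and 155 CPM (1.24 ± 0.20). In the list of disturbed flow and activation, 7 of 18 were higher and 2 lower (median 0.29, 3 and 1 with DESeq2). *Thbs1* was at 733 and 691 CPM against 97.7 and 235 CPM (2.18 ± 0.23, adjusted p = 1.18e-05), *Ccn1*, a matricellular target of YAP, at 517 and 374 CPM against 145 and 137 CPM (1.65 ± 0.18), and the adhesion molecule *Icam1* at 157 and 162 CPM against 83.2 and 107 CPM. The chemokine gene *Cx3cl1* was lower (28.3 and 18.4 CPM against 70.0 and 54.7 CPM). The genes named here had all passed the test, and the differences of *Klf2*, *Klf4* and *Nos3* were small beside those of *Thbs1* and *Ccn1*.

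In the coagulation and vasomotor list, 6 of 27 genes were higher and 7 lower (median -0.03), and with DESeq2 3 were higher and 1 lower. The anticoagulant genes *Procr*, encoding the endothelial protein C receptor (436 and 453 CPM against 173 and 151 CPM, 1.44 ± 0.13, adjusted p = 2.57e-06), and *Tfpi*, encoding tissue factor pathway inhibitor (40.7 and 48.3 CPM against 17.2 and 11.4 CPM), were higher, as was the coagulation factor gene *F8* (31.8 and 15.3 CPM against 2.64 and 4.56 CPM). *Calcrl*, the receptor of adrenomedullin and CGRP, was at 251 CPM in the members of both aortas against 87.1 and 148 CPM. *Ptgs2*, encoding cyclooxygenase-2, was lower (7.44 and 3.06 CPM against 43.6 and 20.5 CPM, -2.63 ± 0.46, adjusted p = 0.00151), and so was *Plaur*, the urokinase receptor (21.3 and 15.9 CPM against 51.5 and 41.0 CPM). *Edn1* did not pass, at 392 and 400 CPM against 342 and 351 CPM.

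Of 42 matrix genes, 8 were higher and 8 lower (median -0.02). The basement membrane chains *Col4a4* (287 and 354 CPM against 127 and 185 CPM, 1.08 ± 0.17, adjusted p = 5.53e-04) and *Col4a5* (75.4 and 71.0 CPM against 30.4 and 18.2 CPM) were higher, whereas *Col18a1* (176 and 157 CPM against 391 and 276 CPM, -1.02 ± 0.15, adjusted p = 2.18e-04) and *Col8a1* (24.8 and 28.1 CPM against 91.1 and 70.7 CPM) were lower. *Mgp*, the calcification inhibitor matrix Gla protein, was at 6516 and 8029 CPM against 11630 and 12148 CPM (-0.71 ± 0.12).

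In the list of adhesion and junction genes, 2 of 22 were higher and 5 lower (median -0.18, 1 and 3 with DESeq2). *Cldn5*, the claudin of endothelial tight junctions, was at 448 and 587 CPM against 1648 and 1701 CPM (-1.70 ± 0.12, adjusted p = 2.03e-07), and *Podxl*, a sialomucin of the luminal surface, at 176 and 167 CPM against 564 and 529 CPM (-1.68 ± 0.12, adjusted p = 2.41e-07). *Madcam1*, an adhesion molecule known as a target of *Nkx2-3* in gut and spleen, had 0 UMIs in members and comparison cells of both aortas, which allows up to 3 UMIs over a group.

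In the lipid list, 3 of 19 genes were higher and 2 lower (median 0.71). *Apoe* was at 8067 and 7595 CPM in members and 2773 and 3120 CPM in comparison cells (1.41 ± 0.09, adjusted p = 3.18e-08), above its level in SMCs (478 and 250 CPM) and fibroblasts (1989 and 1441 CPM). Of 24 genes of MHC class II and the interferon response, 7 were higher and 4 lower (median 0.24, 4 and 3 with DESeq2). The class II genes *H2-Eb1* (104 and 185 CPM against 43.6 and 59.3 CPM, 1.52 ± 0.29), *H2-Ab1* (152 and 234 CPM against 68.7 and 112 CPM) and *Cd74*, the invariant chain (428 and 597 CPM against 184 and 205 CPM, 1.40 ± 0.16, adjusted p = 2.54e-05), were higher. *Ly6c1* (339 and 455 CPM against 1677 and 1758 CPM, -2.12 ± 0.14, adjusted p = 1.10e-07) and *Ly6a* (589 and 794 CPM against 2098 and 2616 CPM) were lower, and reads may be divided among this family of similar genes. For *Cd74* and the class II genes the members of aorta 2 were higher than those of aorta 1.

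Among regional transcription factors, 2 of 25 tested were higher and 1 lower (median 0.26): *Meis2* was at 229 and 193 CPM against 119 and 100 CPM (0.93 ± 0.16, adjusted p = 0.00161), *Zfpm1*, a GATA cofactor, at 101 and 91.2 CPM against 52.8 and 54.7 CPM, and *Sox17* was lower. *Gata6* (325 and 339 CPM against 248 and 249 CPM) and *Tbx1* (37.7 and 34.3 CPM against 48.9 and 86.7 CPM) did not pass, and *Gata4* was near 0 (3.47 and 1.22 CPM in members). Of 16 Hox genes 3 were lower in members, *Hoxa9*, *Hoxb9* and *Hoxd4* (median -0.26), with 0 higher and 5 lower at an unadjusted p under 0.05. With DESeq2 0 of the 16 Hox genes passed in either direction. *Hoxa9* was at 35.7 and 24.5 CPM against 51.5 and 91.2 CPM, with a log2 fold change of -0.47 within aorta 1 and -1.87 within aorta 2. *Hoxd4* overlaps *Hoxd3* on the same strand, so its reads may be uncertain. In the list of immediate early and heat shock genes 3 of 21 were lower (median -0.11, 1 with DESeq2), and in that of the cell cycle 2 of 9 (median -0.38), namely the cyclin *Ccnd2* (317 and 269 CPM against 450 and 472 CPM) and the inhibitor *Cdkn1a* (46.6 and 55.7 CPM against 173 and 135 CPM). The immediate early gene *Nr4a1* was at 37.2 and 19.0 CPM in members against 97.7 and 41.0 CPM.

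**Figure D4:**
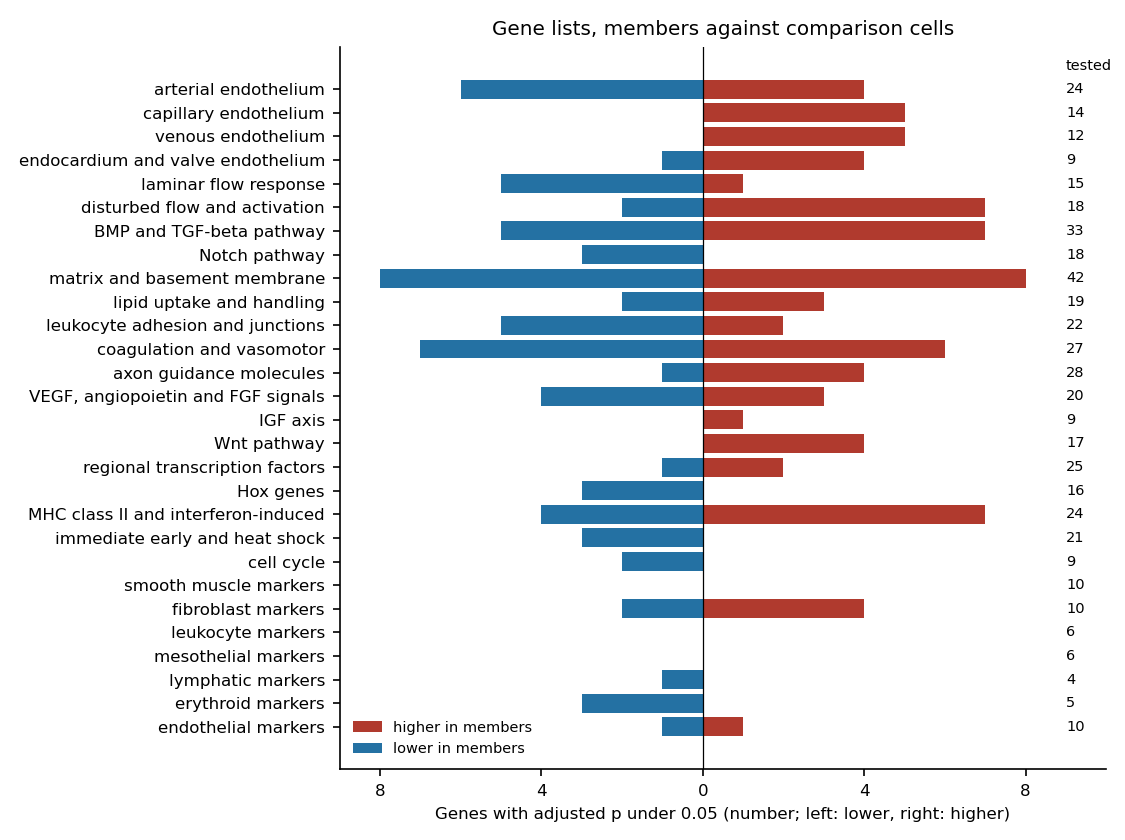
Number of genes of each list with an adjusted p under 0.05 (x axis), higher in members to the right in red and lower to the left in blue; the number tested is given at the right. Capillary, venous and Wnt genes that passed were all higher in members, and Notch and Hox genes that passed were all lower.

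Markers of other cell types were measured in the same sums. For SMC markers 0 of 10 passed with edgeR, 0 had an unadjusted p under 0.05 and 0 passed with DESeq2 (median 0.10), and their summed level was 5845 and 5094 CPM in members and 6116 and 4372 CPM in comparison cells, against 54553 and 53122 CPM in SMCs. Of 10 fibroblast markers 4 were higher and 2 lower (median 0.68, 1 and 2 with DESeq2), with a summed level of 2685 and 3127 CPM in members, 2180 and 1692 CPM in comparison cells and 58652 and 63337 CPM in fibroblasts, and none at 0. *Dcn*, encoding decorin, was at 662 and 721 CPM in members against 199 and 52.5 CPM (2.34 ± 0.33; 1.78 within aorta 1 and 3.78 within aorta 2). Without clusters 5, 6 and 7 its log2 fold change was 2.99, and among the members of cluster 3 it was found in 72.9% and 75% of cells. The part of fibroblast transcripts in this difference was not tested. *Serpinf1* and *Pi16* of the same list were lower.

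For leukocyte markers 0 of 6 tested passed with either tool and 1 had an unadjusted p under 0.05 (median 0.53), and the 12 genes summed to 127 and 156 CPM in members, 133 and 84.4 CPM in comparison cells and 6751 and 5562 CPM in lymphocytes. For mesothelial markers 0 of 6 passed with either tool and 3 had an unadjusted p under 0.05, all lower in members (median of the list -1.83). They summed to 149 and 172 CPM in members and 285 and 160 CPM in comparison cells, where 7 of 10 were at 0 in aorta 2. Of 4 lymphatic markers tested 1 passed, *Cp*, encoding ceruloplasmin (224 and 168 CPM in members against 383 and 495 CPM; median of the list 0.13). Lymphatic markers summed to 464 and 362 CPM in members, with 3 and 2 of 10 at 0, and to 10911 and 12242 CPM in lymphatic cells. Of 10 endothelial markers *Eng* was higher and *Cldn5* lower (median -0.06), of which *Cldn5* passed with DESeq2. The part of these markers in the other differences was not tested.

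The number of detected genes of the first set gives a graded view of the members, since 167 members had 2, 263 had 3, 264 had 4, 109 had 5 and 19 had all 6. *Thbs1*, which the rule did not use, was at 234 and 152 CPM in members with 2 detected genes, 499 and 547 CPM with 3, 794 and 779 CPM with 4 and 1103 and 981 CPM with 5. *Sfrp1* went from 1066 and 1233 CPM with 2 genes to 2073 and 2314 CPM with 5, and *Frzb* from 60.6 and 63.3 CPM to 207 and 305 CPM. *Cldn5* went the other way, from 856 and 984 CPM to 245 and 291 CPM, and *Ly6c1* from 703 and 836 CPM to 193 and 151 CPM. The same order was seen in both aortas for each of these genes between 2 and 5 detected genes. Median UMIs per cell also rose along this scale, from 2273 with 2 genes to 5949 with 5 and 6931 with 6, and their part in the levels was not tested. *Ctla2a* did not follow this grading, with 775 and 722 CPM at 2 genes, 583 and 467 CPM at 3 and 943 and 1075 CPM at 5. *Mgp* changed less, from 6264 and 7436 CPM to 5654 and 7283 CPM.

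**Figure D5:**
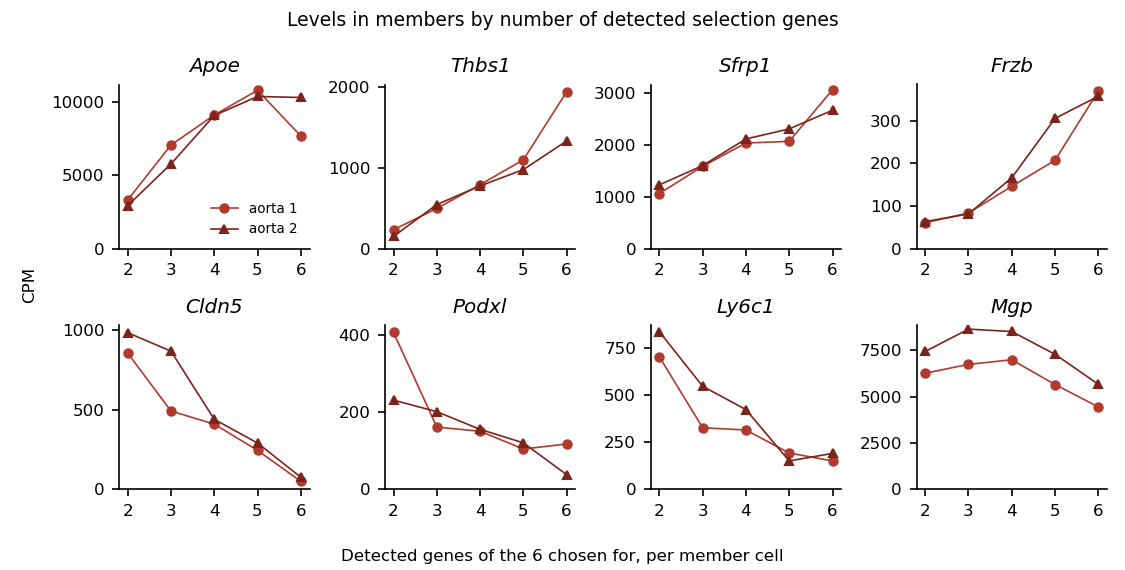
CPM (y axis) of 8 genes in members with 2 to 6 detected genes of the first set (x axis), in aorta 1 (circles) and aorta 2 (triangles). *Apoe*, *Thbs1*, *Sfrp1* and *Frzb* are lowest at 2 genes, *Cldn5* and *Ly6c1* are highest there, and the points at 6 genes rest on 9 and 10 cells.

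The reporter showed where members stand in relation to the *Myh11* lineage, whose cells switch from tdTomato to eGFP. At 1000 UMIs per cell an eGFP transcript was found in 16.2% of members in aorta 1 and 18.4% in aorta 2, with exact intervals of 12.9 to 20 and 14.7 to 22.7, in 16.1% and 12.7% of comparison cells, in 95.1% and 93.2% of SMCs and in 5.76% and 2.93% of lymphocytes. Without thinning the member shares were 35.0% and 41.0%. The member shares were thus above the lymphocyte shares and far below the SMC shares. By cluster, eGFP was at 3715 and 4498 CPM in the members of cluster 5, which carried smooth muscle genes, and between 89.9 and 188 CPM in those of clusters 0 to 3. tdTomato was found in 65.9% and 67.0% of members and 69.6% and 69.8% of comparison cells, against 2.99% and 3.44% of SMCs. In the test over all genes neither reporter passed between members and comparison cells, with a log2 fold change of 0.05 ± 0.22 for eGFP and -0.23 ± 0.10 for tdTomato (adjusted p = 0.967 and 0.259).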

How the data were processed

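Thoracic aortas of 2 wild-type mice were analysed as 1 droplet library each (3′ v3.1 chemistry). The deposited values are raw UMI counts per gene and cell, made by the authors with Cell Ranger 4.0.0 on mm10 with eGFP and tdTomato added (32287 features). The submitters' notes also list Seurat 4.0, and strand use in counting is not given in the sources used here. The 3′ counts are not scaled by transcript length.

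A cell was kept if it had over 200 genes, between 1000 and 25000 UMIs and under 10% mitochondrial UMIs. The members, gene lists, reference populations and tests were chosen with earlier results of these data known. Lymphocytes, SMCs, fibroblasts and lymphatic cells were taken by marker UMIs, outside the endothelial gate or, for lymphatic cells, by *Prox1* or *Mmrn1*. Doublets were called with Scrublet in scanpy 1.11.5 (Python 3.11.15; 2.98% and 1.89% of cells) and removed only in an alternative. Gated cells were clustered on 2000 variable genes, 30 components and 15 neighbours (leidenalg 0.10.2, resolution 0.5), leaving out the 19 genes of the rule. UMIs were summed per aorta and group. The 6 sums entered 1 edgeR 4.0.16 quasi-likelihood fit (R 4.3.3) with cell group as the only term, TMM scaling, filterByExpr and Benjamini-Hochberg adjustment over 9032 genes. Gene positions are from GENCODE on GRCm38. The 19 genes stayed in the library sizes and were not tested. SE is the standard error of a fitted log2 fold change, and values of 1 aorta have no test.

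Genes named from the test are the 12 highest and 12 lowest by log2 fold change that passed both limits, with a mean of at least 30 CPM and at least 10 UMIs in each aorta in the higher group and the same direction in both aortas. List genes were named as examples, some genes are not reported here, and genes shown by cluster or by number of detected genes were chosen after their values were seen. Sums with the same aorta number come from the same animal. The correlation of their deviations between the aortas was 0.017 for members and comparison cells, 0.112 for members and other gated cells and -0.032 for comparison and other cells over 9032 genes, and a fit with the aorta as a block was an alternative. DESeq2 1.42.0 was another. Intervals and limits cover counting error only.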

Additional observations from a re-analysis of the deposited data

How the results depend on the processing

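The 269 genes past both limits became 146 with DESeq2, 128 with a minimum of 5000 UMIs per cell and 93 at 1000 UMIs per cell, of which 146, 110 and 72 were among the 269. The cause was not tested. The last pair of settings tested 7392 and 3702 genes, and DESeq2 tested 9032. The other 11 alternatives gave between 212 genes (of 5666 tested) and 374 genes (of 16886 tested). With the aorta as a replicate block the count was 300, with 266 shared, and the block changed no call among the 142 genes named by the rule or passing within a list. Of these 142 genes, 50 kept their side of the 0.05 threshold under each alternative in which they were tested, as did 18 of the 24 with the largest changes. Of the other genes named in the report, *Icam1*, *Lrp5* and *Eng* kept the call in 9 of 14 alternatives, *Dll1*, *Bmpr1a*, *Tgfb1* and *Zfpm1* in 10 of 14, *Tgfbr3* and *Hoxb9* in 9 of 13, *Acvrl1*, *Pdgfb*, *Hoxa9* and *Aqp1* in 11 of 14, *Tfpi* and *Nr4a1* in 10 of 13, and *Gpihbp1* in 9 of 12. Of 1917 gene values under alternatives 1648 kept their side, 269 lost the call and none changed direction. With 1 aorta left out there is no test. No gene then changed direction, but for the 24 with the largest changes the same direction in both aortas was a condition of their choice. The log2 value of 26 moved by over 1.5 times. In the report *Calcrl* (1.58 within aorta 1, 0.77 within aorta 2), *Cp* (-0.72 and -1.54), *F8* (3.50 and 1.67), *Flt1* (-1.07 and -0.63), *Pi16* (-0.95 and -0.41) and *Vegfc* (-1.86 and -1.06) are of this kind beside those given there. By the fold itself, *Cyp26b1* (-2.62 and -4.58), *Rps6ka2* (2.40 and 3.56), *Nr4a2* (-2.82 and -4.005) and *Thbs1* (2.96 and 1.56) also moved by over 1.5 times. The mean member share of 55.7% (55.3 to 56.0 with 1 aorta left out) was 44.3% with at least 3 detected genes, 58.4% from 5000 UMIs, 46.3% with the rule applied at 1000 UMIs, 59.4% with a gate of 6 UMIs and 36.6% without *Cytl1* in the rule. The last of these, the fits without *Cytl1*, without clusters 5 to 7 and with only members that carry *Isl1*, *Nkx2-3* or *Emcn*, and the finer clustering were added after the data were seen. The mean eGFP share was 38.0% in members and 32.6% in comparison cells without thinning and 6.12% and 3.77% with at least 2 UMIs, and the tdTomato share 92.7% and 92.5%, and 33.8% and 43.2%. Depth limits the shares of *Isl1* and *Nkx2-3*, which rest on few UMIs per cell.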
